A study of Mus musculus with 10 samples.

Results

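A set of 8 genes of epithelial junctions and keratin filaments was followed in mouse samples with and without Sirt6: Ocln, Krt7, Krt8, Krt18, Krt19, Cdh1, St14 and Dsp. A gene was taken as measured where a spot of the array was annotated to its symbol alone. This held for 6 of the 8 genes, with 9 spots in all, among 14365 genes in all. Those genes come from spots with a value on every array, and 22204 of the array's 38784 spots had a single symbol. Ocln, Krt7, Krt18 and Cdh1 had 1 spot each, Krt8 had 2 and St14 had 3. No spot was annotated to Krt19 or Dsp, which are not analysed further here. The members were chosen with their values on these arrays known, so their levels and differences are given as a description, without p-values. How many passed a fit across all genes is given only beside the share of all genes that passed, and nothing is read from it.

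The study compared Sirt6 knockout (KO) with wild-type (WT) samples, either untreated (0 h) or exposed for 1.5, 6 or 24 h to TNF-alpha, a cytokine of inflammation that acts through NF-kB. There were 10 arrays in 8 groups: the untreated state was covered by a pair of arrays (a and b) per genotype and every later time by 1. Sirt6 encodes a chromatin-bound deacetylase, and its loss was the only genetic difference named in the labels. Strain, age, cell type, the allele and the dose of TNF-alpha are not stated in the labels, which also leave unsaid whether the 0 h arrays came from separate cultures, so the errors may measure technical spread only. Each array set the sample, labelled with Cy5, against a universal mouse reference RNA, labelled with Cy3. The values are read as log2 ratios of sample over reference, a reading that the labels do not state. They are given after the median of each array over genes was set to 0. A ratio of 0 therefore means the same standing against the reference as the median gene, and ratios of different genes do not rank their RNA levels. In such samples, fewer cells of a type and less RNA per cell cannot be told apart.

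Epithelial cells are held together by tight junctions, which seal the space between cells and contain occludin (Ocln), and by adherens junctions, built on E-cadherin (Cdh1). Desmosomes, which contain desmoplakin (Dsp), tie keratin filaments to the membrane. Keratins polymerise as pairs of a type II chain (Krt7, Krt8) and a type I chain (Krt18, Krt19), and Krt8 with Krt18 is the pair of simple epithelia. St14 encodes matriptase, a membrane-bound serine protease of epithelial cells. Fibroblasts and other mesenchymal cells carry little of these proteins, and repressors such as Snai1 and Zeb1 silence Cdh1 by binding the E-box CAGGTG in its promoter.

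Promoter sequences from RefSeq (GRCm38.p6, 250 bases before to 50 bases after the start site) matched 5 of the 8 members. The 4 of measured genes are shown: Ocln, Krt7, Krt8 and Krt18. No promoter sequence was available for Cdh1, St14 or Krt19, so these were not searched. They lie at chr13:100552669-100552968 (minus strand), chr15:101412153-101412452 (plus strand), chr15:102004293-102004592 (minus strand) and chr15:102027966-102028265 (plus strand). Capitals mark the E-box CAGGTG, searched on both strands (CACCTG where it lies on the other), and TATAAA, searched on the strand of the gene.
Ocln: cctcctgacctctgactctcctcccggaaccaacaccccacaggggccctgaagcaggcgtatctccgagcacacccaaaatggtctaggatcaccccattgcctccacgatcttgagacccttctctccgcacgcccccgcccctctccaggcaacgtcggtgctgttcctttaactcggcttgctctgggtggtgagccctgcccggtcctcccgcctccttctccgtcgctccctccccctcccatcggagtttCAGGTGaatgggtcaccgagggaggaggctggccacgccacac
Krt7: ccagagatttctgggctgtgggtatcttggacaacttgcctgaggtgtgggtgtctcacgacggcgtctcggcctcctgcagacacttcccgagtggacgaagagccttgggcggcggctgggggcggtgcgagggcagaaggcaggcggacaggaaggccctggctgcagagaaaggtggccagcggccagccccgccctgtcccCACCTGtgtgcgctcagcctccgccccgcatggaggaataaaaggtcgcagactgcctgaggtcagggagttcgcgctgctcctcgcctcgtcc
Krt8: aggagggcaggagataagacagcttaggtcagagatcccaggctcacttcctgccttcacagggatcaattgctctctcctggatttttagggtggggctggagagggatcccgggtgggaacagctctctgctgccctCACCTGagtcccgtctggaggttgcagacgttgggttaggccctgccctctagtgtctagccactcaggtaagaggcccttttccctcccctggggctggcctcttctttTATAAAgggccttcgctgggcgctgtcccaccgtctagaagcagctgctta
Krt18: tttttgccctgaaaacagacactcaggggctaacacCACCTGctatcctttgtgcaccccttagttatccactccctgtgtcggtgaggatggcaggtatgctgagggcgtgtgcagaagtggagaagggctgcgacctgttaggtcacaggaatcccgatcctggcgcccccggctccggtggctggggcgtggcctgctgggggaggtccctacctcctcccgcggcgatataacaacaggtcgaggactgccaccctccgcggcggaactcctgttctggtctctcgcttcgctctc
CAGGTG was present in all 5 promoters, that of Dsp included, against 20% of 27025 promoters taken at 1 per gene. It began at base 8 after the start site in Ocln, and at bases -44 in Krt7, -111 in Krt8 and -214 in Krt18. TATAAA was present in Krt8 alone among the 5, against 8.88% of all. The NF-kB motif, which 4.35% of all promoters held, was not in these windows. A motif of this kind is a match of letters and not a measured binding site. Krt8 (chr15:101996711-102004342) and Krt18 (chr15:102028216-102032026) are neighbours on chromosome 15 and are read in opposite directions, with 23.9 kb between their start sites.

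The targeted gene was examined as a check of the labels. Sirt6 (2 spots) stood at -1.05 and -0.82 on the untreated KO arrays, -0.76 (1.5 h), -1.16 (6 h) and -0.05 (24 h), against -0.16 to 0.07 on the 5 WT arrays. The array labelled KO at 24 h thus lay within the WT range, and values from it below are given under that label. The 2 spots correlated at 0.51 over the arrays. At spot 4451 the KO 6 h array (-0.355) also lay within the WT range (-0.389 to 0.212). At spot 9711 that array stood at -1.96, below the WT range (-0.43 to 0.21). Where the spots of Sirt6 lie relative to the deletion is not stated in the labels. The arrays also differed in width, with an SD over spots of 0.551 to 0.983. The 3 widest were KO 0 h array b (0.983), KO 0 h array a (0.833) and WT 6 h (0.827). The KO 0 h arrays correlated at 0.69 with each other and the WT 0 h arrays at 0.857, over genes. The spread of each 0 h pair and the number of arrays set the precision of differences at single times and of differences in response. The errors of the genotype averages, explained below, and of the TNF responses in the mean over the genotypes also hold any difference in response.

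As a check of the cells, lists of marker genes were set against the array median. The median ratio over 15 fibroblast markers was 0.70 to 1.00 on the KO arrays and 0.77 to 1.35 on the WT arrays, with Col1a1, a fibrillar collagen chain, at 1.56 to 1.87 in KO and 1.57 to 1.96 in WT. Of these 15 markers 11 had a mean above the array median and 4 below it. Among the latter was Col3a1, another fibrillar collagen chain, at -0.79 to -0.16 in KO and -0.91 to -0.31 in WT. The median over 12 epithelial surface genes was -0.26 to -0.09 in KO and -0.25 to -0.13 in WT, that over 24 tight junction genes -0.21 to 0.13 and -0.15 to 0.04, and that over 9 adherens junction genes 0.41 to 0.88 in KO and 0.57 to 1.05 in WT. The epithelial adhesion molecule Epcam stood at -2.11 to -0.89 in KO and -2.48 to -1.67 in WT. All 6 smooth muscle markers stood above the array median, with a list median of 0.57 to 1.74 in KO and 0.79 to 1.16 in WT, and 6 of 7 endothelial markers did. Of 5 macrophage markers 4 and of 6 mesothelial markers 5 stood below it, among them Msln at -2.93 to -2.01 in KO and -3.25 to -2.55 in WT. A ratio to the reference does not show whether a gene was expressed at all, and what the reference RNA holds of each gene was not measured. In the genotype average, explained below, the median of KO minus WT was 0.33 over 6 smooth muscle markers, 0.19 over 6 mesothelial, 0.30 over 6 embryonic stem cell, 0.11 over 7 endothelial, -0.05 over 15 fibroblast, -0.09 over 8 keratinocyte, -0.08 over 5 macrophage and 0.00 over 5 trophoblast markers, of which 0 passed by limma. Shifts of the macrophage, mesothelial and smooth muscle lists at 0 h and in the response to TNF-alpha, KO minus WT, stand beside St14. In that difference in response at 6 h, the embryonic stem cell median was 0.87 (4 of 6 higher). The endothelial median there was -0.43 (5 of 7 lower), and at 24 h the trophoblast median was 0.41 (3 of 5 higher). The part of other cell types in the results was not tested. With the ratio read as sample over reference, Krt18, St14 and Krt8 had mean ratios at percentiles 0.0975, 1.5 and 0.668 of all genes, whereas Cdh1 stood at the 19.7th percentile, Krt7 at the 62.4th and Ocln at the 71.9th. A reversed ratio would turn this order round.

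Ocln (chr13:100496504-100552718), the tight-junction gene, was higher on every KO array than on any WT array. Its ratios were 0.30 and 0.90 on the untreated KO arrays, 0.59 (1.5 h), 0.21 (6 h) and 0.66 (24 h array labelled KO). On the untreated WT arrays they were -0.55 and -0.07, and on the treated ones 0.09 (1.5 h), 0.03 (6 h) and -0.47 (24 h). The groups did not overlap, and their nearest values, KO at 6 h and WT at 1.5 h, were 0.12 apart. Of all genes 0.961% had all 5 KO arrays above all 5 WT arrays and 1.28% had them below, and Ocln was the only 1 of the 6 measured members in either class. Ocln kept this separation without centring, with quantile normalization, with arrays scaled to equal spread and once a running median along the spots was subtracted. It was narrowest without centring, where the lowest KO value was 0.129 and the highest WT value 0.104. KO minus WT was 0.91 untreated (SE 0.30, n = 2 per genotype), then 0.49, 0.18 and 1.14 at 1.5, 6 and 24 h (SE 0.42 each, n = 1 per genotype). The genotype average, KO minus WT over the 4 times with 0 h weighted most, was 0.73 (SE 0.20), or 1.66-fold, and 0.63 without the array labelled KO at 24 h.

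Krt7 (chr15:101412403-101427806), a type II keratin, was also higher in KO at each time, with almost no difference at 6 h. The untreated KO arrays stood at 0.71 and 0.71, and the treated ones at 0.29 (1.5 h), -0.09 (6 h) and 0.38 (24 h array labelled KO). The untreated WT arrays stood at 0.06 and -0.11, and the treated ones at -0.48 (1.5 h), -0.12 (6 h) and -0.59 (24 h). The KO 6 h array fell within the WT range and the other 4 KO arrays lay above it. KO minus WT was 0.73 untreated (SE 0.19), then 0.76, 0.03 and 0.97 at 1.5, 6 and 24 h (SE 0.27 each), and the genotype average was 0.65 (SE 0.16), or 0.57 without the array labelled KO at 24 h. KO stood above WT at 4 of 4 times for Ocln and Krt7, as for 5.97% of all genes, and below it at 4 of 4 times for 0 of the 6 members, as for 9.05% of all genes. Krt7 was the member that stood lower after TNF-alpha at each time in the mean over the genotypes, with -0.43, -0.44 and -0.45 against 0 h (SE 0.22 each). Without the KO 6 h array the value at 6 h was -0.06, and without the WT 6 h array -0.83.

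**Figure D1:**
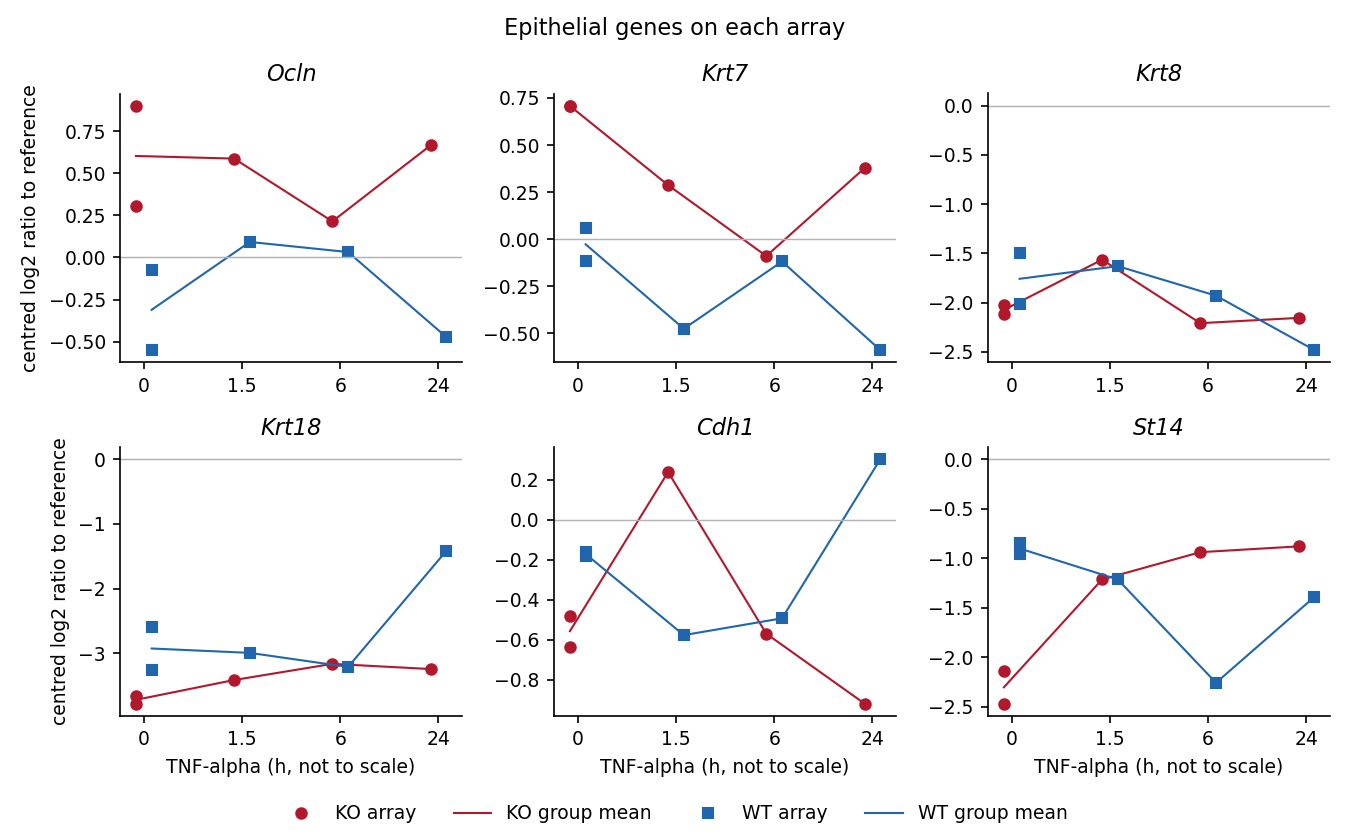
Centred log2 ratio to the reference RNA (y axis) of the 6 measured genes on each of the 10 arrays, by time of TNF-alpha in hours (x axis). Circles are KO arrays, squares WT arrays, and lines join the group means; the Ocln values of the 5 KO arrays (0.21 to 0.90) all lie above those of the 5 WT arrays (-0.55 to 0.09), and the St14 lines cross.

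**Figure D2:**
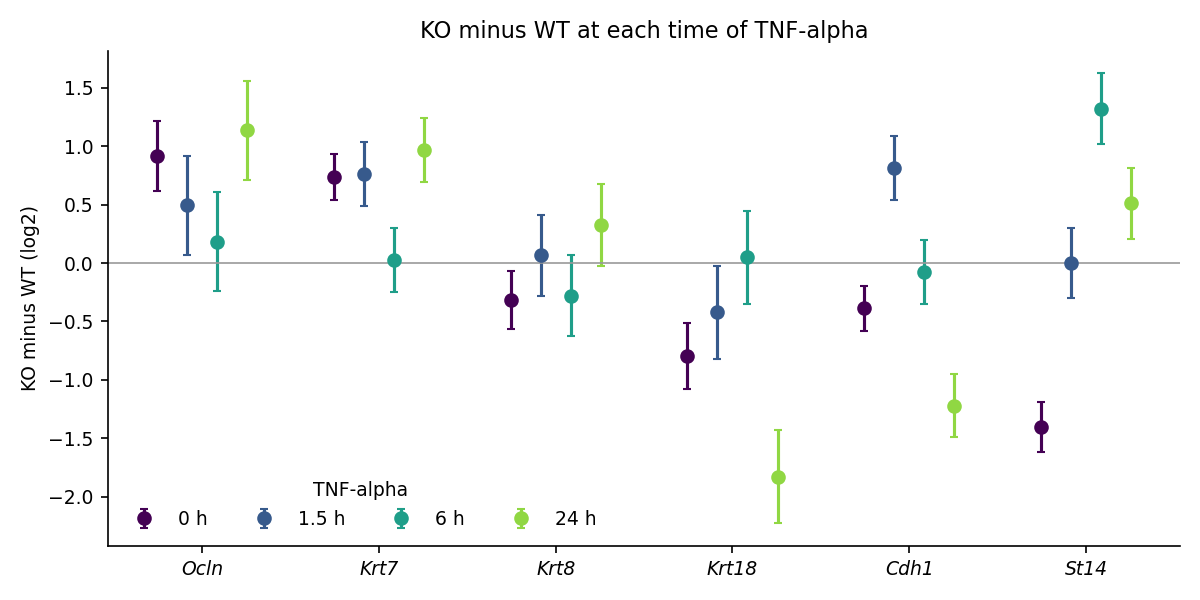
KO minus WT on the log2 scale (y axis) for each gene (x axis) at 0, 1.5, 6 and 24 h of TNF-alpha, with bars of 1 SE from limma. Ocln and Krt7 are above 0 at all 4 times, and St14 is at -1.40 untreated and at 1.32 after 6 h.

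Krt18, the type I partner of Krt8, stood far below the reference on all arrays, and both untreated KO arrays lay below both untreated WT arrays. The untreated KO arrays stood at -3.66 and -3.78, and the treated ones at -3.41 (1.5 h), -3.16 (6 h) and -3.24 (24 h array labelled KO). The untreated WT arrays stood at -3.27 and -2.59, and the treated ones at -3.00 (1.5 h), -3.21 (6 h) and -1.42 (24 h). The WT 24 h array stood apart, 1.51 above the next group mean, whereas the other 7 groups followed each other at gaps within the spread of the 0 h pairs (pooled SD 0.34). KO minus WT was -0.79 untreated (SE 0.28), then -0.42, 0.05 and -1.83 at 1.5, 6 and 24 h (SE 0.40 each). The genotype average was -0.76 (SE 0.26), and -0.49 without either 24 h array. It was -0.05 with arrays scaled to equal spread and -0.31 with quantile normalization. The direction at 0 h depended on the scaling of arrays. There it was 0.73 with arrays scaled to equal spread and 0.34 with quantile normalization, and -0.20 once a running median along the spots was subtracted.

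The 2 spots of Krt8 disagreed. The mean of both spots was -2.12 and -2.03 on the untreated KO arrays, -1.56 (1.5 h), -2.21 (6 h) and -2.16 (24 h array labelled KO), against -2.02 and -1.5 on the untreated WT arrays, -1.63 (1.5 h), -1.93 (6 h) and -2.48 (24 h). The genotypes overlapped, and the genotype average was -0.10 (SE 0.16). Spot 7148 stood 2.88 above spot 31298 on average, and over the 10 arrays they correlated at -0.51. At 0 h, KO minus WT was 0.32 (SE 0.36) at spot 7148 and -0.96 (SE 0.26) at spot 31298. The spots were furthest apart on KO 0 h array b (0.16 and -4.21) and closest on the KO 6 h array (-2.02 and -2.40). Which spot reports Krt8 was not tested, and the value for this gene is uncertain. Like Krt18, the mean turned sign at 0 h with arrays scaled to equal spread (0.56) or quantile normalization (0.33).

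Cdh1 (chr8:106603350-106670247), the adherens-junction cadherin, had no steady difference between the genotypes. The untreated KO arrays stood at -0.63 and -0.48, and the treated ones at 0.24 (1.5 h), -0.57 (6 h) and -0.92 (24 h array labelled KO). The untreated WT arrays stood at -0.16 and -0.18, and the treated ones at -0.58 (1.5 h), -0.49 (6 h) and 0.30 (24 h). KO was the lower at 0 h, 6 h and 24 h and the higher at 1.5 h, with differences of -0.39 untreated (SE 0.19) and of 0.81, -0.08 and -1.22 at 1.5, 6 and 24 h (SE 0.27 each). Both KO arrays at 0 h were below both WT arrays for Cdh1, Krt8, Krt18 and St14, as for 28.8% of all genes, and above them for Ocln and Krt7, as for 24% of all genes. The genotype average of Cdh1 was -0.25 (SE 0.25), and -0.01 without either 24 h array. Against 0 h, the 1.5 h value was 0.79 in KO and -0.41 in WT, and the 24 h value -0.36 in KO and 0.47 in WT (SE 0.24 each).

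St14 (chr9:31088590-31131811), the matriptase gene, had the largest difference in response between the genotypes among the 6 members. The untreated KO arrays stood at -2.14 and -2.47, and the treated ones at -1.21 (1.5 h), -0.94 (6 h) and -0.88 (24 h array labelled KO). The untreated WT arrays stood at -0.96 and -0.85, and the treated ones at -1.22 (1.5 h), -2.26 (6 h) and -1.39 (24 h). All 3 treated KO arrays were above both untreated KO arrays, and all 3 treated WT arrays below both untreated WT arrays. Of all genes 3.07% had this pattern and 1.94% its mirror image, and St14 was the only 1 of the 6 members with either. KO minus WT was -1.40 untreated (SE 0.21), a level 2.65-fold lower in KO, and was 1.32 at 6 h and 0.51 at 24 h (SE 0.30 each). At 1.5 h the genotypes stood level, at -1.21 in KO and -1.22 in WT. Against their own untreated arrays, the KO arrays were at 1.09, 1.37 and 1.42 and the WT arrays at -0.31, -1.36 and -0.49 after 1.5, 6 and 24 h (SE 0.26 each). The difference between these responses, KO minus WT, was 1.40, 2.72 and 1.92 (SE 0.37 each). All 3 values subtract the same untreated difference of -1.40, so they are not independent. At 1.5 h, where the genotypes stood level, the value is that difference with its sign turned. The macrophage marker list moved the same way as St14, with a median of -1.02 in KO minus WT at 0 h (4 of 5 lower). Its differences in response were 0.76, 2.02 and 0.55 at 1.5, 6 and 24 h (3, 5 and 3 of 5 higher). The mesothelial list had -0.16 at 0 h and 0.11, 0.92 and 0.58, and the smooth muscle list ran the other way, with 0.62 at 0 h and -0.10, -0.88 and -0.50. Of these markers 0 passed by limma, and their part in the St14 values was not tested.

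The 3 spots of St14 correlated at 0.61 to 0.81 with each other over the arrays. KO minus WT at 0 h was -0.80 (SE 0.28), -1.65 (SE 0.32) and -1.77 (SE 0.48) at spots 2406, 28148 and 38219. The difference in response at 6 h was 1.37, 3.89 and 2.93 at these spots, so that its size varied between them and its direction did not. St14 was lowest on KO 0 h array b, WT 6 h and KO 0 h array a, which were also the 3 arrays of widest spread. With arrays scaled to equal spread, KO minus WT at 0 h was -0.66 and the differences in response were 1.17, 1.64 and 1.09. With quantile normalization they were -0.52 and 1.09, 1.46 and 0.96. The part of array spread in these values was not tested. The pattern does not need the array labelled KO at 24 h, since both other treated KO arrays also lay above the untreated ones. It held under both scalings, without centring and once a running median along the spots was subtracted.

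**Figure D3:**
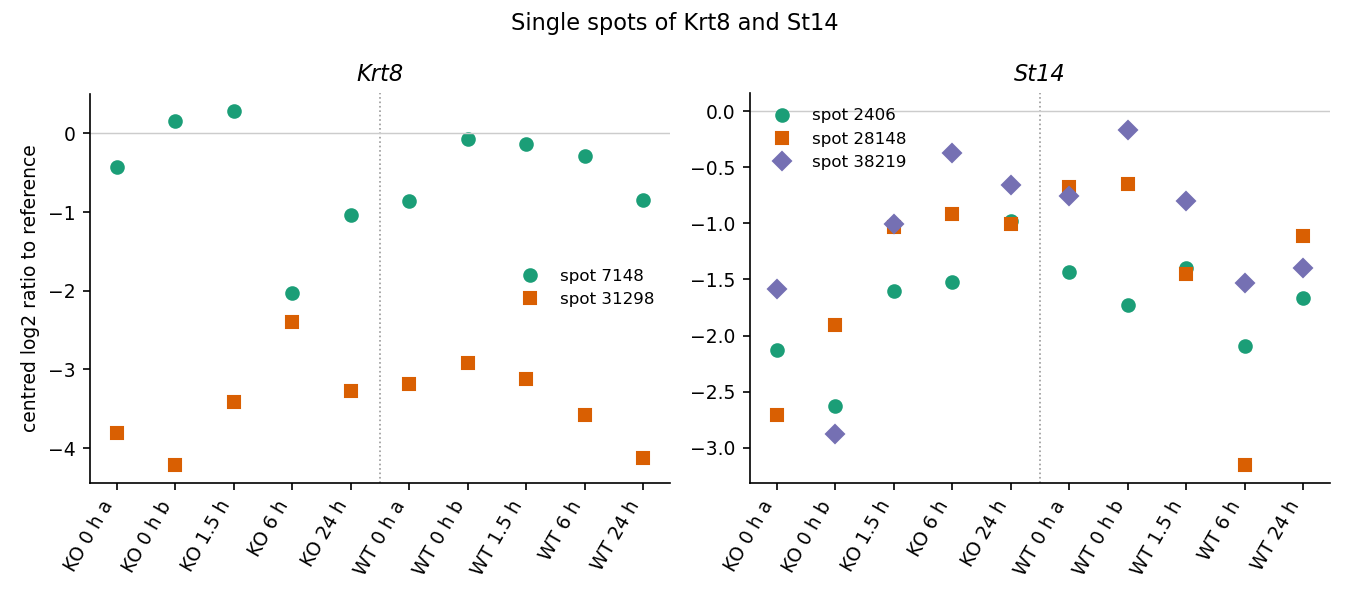
Centred log2 ratio to the reference (y axis) of each spot of Krt8 (left) and St14 (right) on the 10 arrays (x axis), KO left and WT right of the dotted line. The spots of Krt8 are 2.88 apart on average and do not run together, and each spot of St14 is lowest on both KO 0 h arrays and the WT 6 h array.

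The 6 genes did not move as a unit. Among the 15 pairs of members, Pearson's r over the 10 arrays was positive in 7 and negative in 8, with a median of -0.01. Ocln and Krt7 ran together (r = 0.71), and Krt7 ran against Krt18 (r = -0.80), while Krt8 and Krt18 were at -0.29. All values share the same arrays and the same reference RNA, and these correlations are descriptions. In the order of the 8 group means, 0 of 7 gaps between neighbours in Ocln exceeded the pooled SD of the 0 h pairs (0.38). In Krt7 5 of 7 did (pooled SD 0.088), in Cdh1 and in St14 3 of 7, and in Krt8 and in Krt18 1 of 7. Each SD rests on the pair of 0 h arrays of each genotype alone. That of Krt7 is small, with its KO 0 h arrays at 0.707 and 0.709, so the counts do not rank the genes. The highest and lowest groups were KO 24 h and WT 24 h for Ocln, KO 0 h and WT 24 h for Krt7, KO 24 h and KO 0 h for St14, and WT 24 h and KO 24 h for Cdh1.

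The fit across all genes, limma with Benjamini-Hochberg adjustment and an adjusted p under 0.05, was run for 8 comparisons. Of the 6 measured members 0 passed in any of them. The share of all genes that passed was 0% in the genotype average, in the genotype at 0 h and in the 1.5 h difference in response. It was 0.00696% in the TNF response at 1.5 h and in the difference in response at 6 h, 0.0139% in the TNF response at 6 h and at 24 h, and 0.0278% in the difference in response at 24 h. In the mean over the genotypes, 5, 2 and 3 of the 6 members stood above their untreated level at 1.5, 6 and 24 h. The largest of these values was that of Krt18 at 24 h (0.99, SE 0.36), which was 0.48 in KO and 1.51 in WT.

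Other genes of epithelial junctions, keratins, surface proteases and their regulators, listed with earlier results of these data known, came to 125, of which 24 were not measured. Of those measured 0 passed in any of the 8 comparisons by limma. In the genotype average 55 were higher and 46 lower in KO, with a median of 0.02 against -0.03 over all genes, and 9 of them (8.91%) had an unadjusted p under 0.05 against 9.68% of all genes. At 0 h the share was 20.8% against 17.2%. In the TNF responses it was 2.97% against 3.73% at 1.5 h, 1.98% against 2.88% at 6 h and 6.93% against 7.08% at 24 h. In the differences in response it was 3.96%, 15.8% and 14.9% at these times, against 3.72%, 13.9% and 13.1%.

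**Figure D4:**
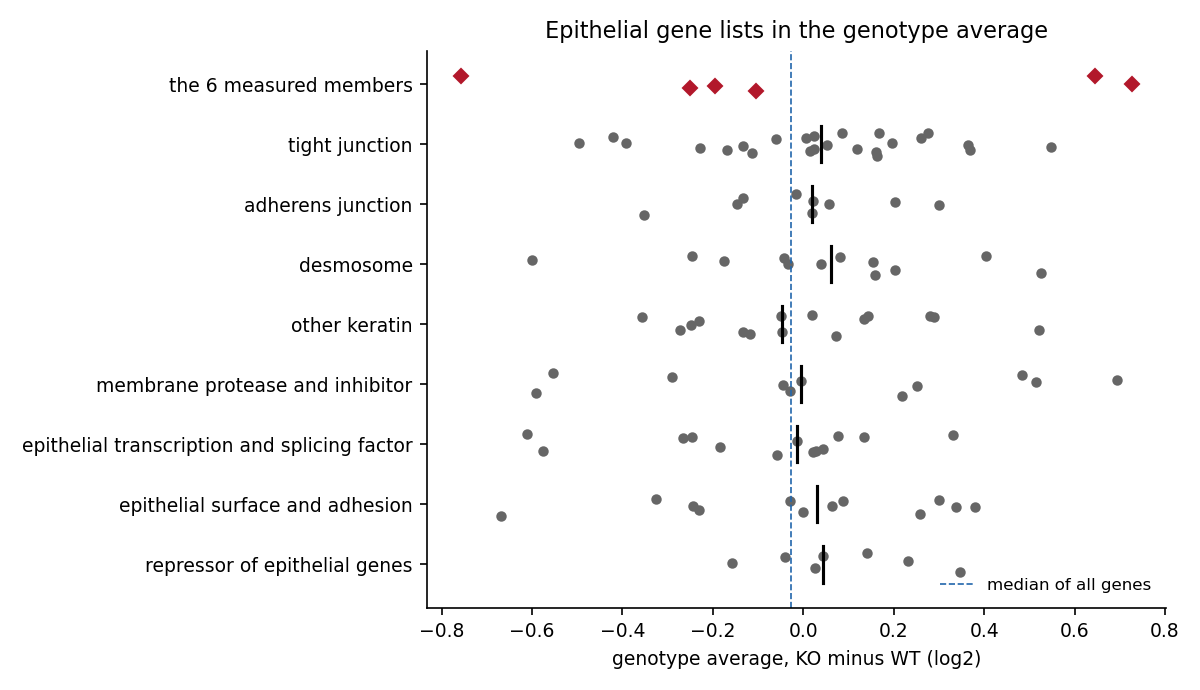
KO minus WT in the genotype average on the log2 scale (x axis) for the 6 measured members and for the genes of 8 lists (rows). Points are genes, black bars the medians of the lists, and the dashed line is the median of all genes (-0.03); the list medians lie between -0.05 and 0.06.

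The tight junction list had 24 measured genes, 16 above 0 and 8 below it in KO minus WT, with a median of 0.04. Its largest values, none of which passed, were those of the claudins Cldn10 (0.55, SE 0.15, adjusted p = 0.428), Cldn1 (-0.50, SE 0.23), Cldn6 (-0.42, SE 0.26) and Cldn4 (-0.39, SE 0.19). Cldn10 had the same split as Ocln, with 0.24 to 0.68 on the KO arrays and -0.25 to 0.04 on the WT arrays. The adherens junction list (9 genes) had 5 higher and 4 lower, and its largest value was that of Nectin2, an immunoglobulin-type adhesion molecule (-0.35, SE 0.16, adjusted p = 0.520). Of 12 desmosome genes 7 were higher and 5 lower. The largest were the cornified-envelope plakin Evpl (-0.60, SE 0.39), the desmosomal p53 target Perp (0.53, SE 0.18) and the desmosomal cadherin Dsc2 (0.40, SE 0.21), with adjusted p from 0.462 to 0.643. Perp stood at -0.86 to -0.25 on the KO arrays and at -1.48 to -0.86 on the WT arrays.

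Of 15 other keratins 7 were higher and 8 lower, with Krt79 (0.52, SE 0.18) and Krt1 (-0.36, SE 0.12), both with an adjusted p of 0.462, at the ends. Krt1 split the other way from Ocln, with 0.42 to 0.74 on the KO arrays and 0.82 to 0.99 on the WT arrays. All 5 KO arrays lay below all 5 WT arrays in 1.28% of all genes. Among 11 membrane proteases and inhibitors, 5 were higher and 6 lower. Hgfac, which encodes the hepatocyte growth factor activator, a serine protease, had the largest value (0.69, SE 0.16, adjusted p = 0.392), with -0.37 to 0.10 on the KO arrays and -1.21 to -0.72 on the WT arrays. Among 13 transcription and splicing factors, 6 were higher and 7 lower. Grhl1, a grainyhead factor that activates junction and desmosome genes, was at -0.61 (SE 0.17, adjusted p = 0.428) and lower in KO at 4 of 4 times. Of 12 surface and adhesion genes 6 were higher and 6 lower, and the laminin receptor chain Itga6 was at -0.67 (SE 0.25, adjusted p = 0.480). Among the 7 repressors of epithelial genes 5 were higher and 2 lower, led by Zeb1 (0.35, SE 0.18, adjusted p = 0.565) and Snai2 (0.23, SE 0.16, adjusted p = 0.651).

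The 10 genes whose profile over the arrays was most like the mean standardised profile of the 6 members were Cd300lb, Reln, Crp, Abcd2, Abca12, Psca, Depdc5, Hap1, Reps2 and Clec4b1, with Pearson's r from 0.79 to 0.89 over 10 arrays. The least like were Tox4, Sri, Gadd45g, Fpr-rs4 and Vnn3, with r from -0.89 to -0.83. The members themselves correlated with this mean at only 0.05 (Krt7) to 0.59 (Krt8), so the likeness describes the mean and not any single member.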

How the data were processed

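The 10 arrays carry both dyes. For each spot the authors deposited a log ratio, read here as log2 of Cy5 over Cy3, whose normalization is not stated in the labels. The base and the direction are not stated in the labels. The base is read from the range of the values (-8.23 to 8.97), and with another base fold changes would differ. The direction, sample over reference, is read from the dyes in the labels, and a reversed ratio would turn the sign of every difference. In the direction used, Sirt6 was lower on 4 of 5 KO arrays, and the chemokine Ccl2, an NF-kB target named after its values were seen, rose by 2.84, 2.90 and 3.12 at 1.5, 6 and 24 h of TNF-alpha (limma adjusted p = 0.0107, 0.00901 and 0.00491). Spots with a value on all 10 arrays (36113 of 38784) and 1 symbol in the platform annotation (22204 spots have 1) were averaged per gene, giving 14365 genes, and the median over genes was then subtracted from every array. Tests used limma 3.58.1 in R 4.3.3, two-sided, with Benjamini-Hochberg adjustment over all genes. An additive model of genotype and time gave the genotype average and the TNF responses. It has 5 residual degrees of freedom, and its residuals hold any difference in response. A model with 1 mean per group gave the other values, with 2 residual degrees of freedom from the 0 h pairs alone, and assumes that each treated array varied like those pairs. The alternatives tried were no centring, quantile normalization, arrays scaled to equal median absolute deviation, a running median along the spots subtracted, spots with values on at least 8 arrays, each spot alone, genes with an SD above the median, the letters as a block, the other model, a robust prior and each array left out. By the rule for named genes these were the members, Sirt6, and the list members that passed or else up to 4 per list with the largest genotype average. The rule also named the 10 most and 5 least alike genes. Col1a1, Col3a1 and Msln were named as examples after their values were seen. The members, lists and tests were chosen with earlier results of these data known.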

Additional observations from a re-analysis of the deposited data

Results flagged for a closer look

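St14 stood out because its treated arrays lay on opposite sides of the untreated ones, with all 3 treated KO arrays above both untreated KO arrays and all 3 treated WT arrays below both untreated WT arrays. Of all genes 3.07% had this pattern. The mean difference in response over the 3 times was 2.01 on the log2 scale, and the 3 values share the same untreated arrays. St14 passed in none of the 8 limma comparisons, the differences in response among them, and each treated group had 1 array. The differences at 1.5, 6 and 24 h, 1.40, 2.72 and 1.92, were 1.17, 1.64 and 1.09 with arrays scaled to equal spread, and 1.09, 1.46 and 0.96 with quantile normalization. The part of array spread and of other cell types was not tested.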

How the results depend on the processing

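The number of genes past the threshold was small in all 8 comparisons and changed with the processing. In the genotype average, where 0 passed, 2 did with quantile normalization, with arrays scaled to equal spread and once a running median along the spots was subtracted. At 0 h, where 0 passed, 1 did without centring. In the TNF response at 1.5 h, where 1 passed, 2 did with arrays scaled, 3 after removal of the trend and 0 under the group-mean model. At 6 h and at 24 h, where 2 passed, 1 did at both times without centring, with each spot alone, with genes of an SD above the median and with the letters as a replicate block. At 6 h 1 passed also after removal of the trend and under the group-mean model, which gave 5 at 24 h. Quantile normalization and arrays scaled gave 3 at both times, and removal of the trend 3 at 24 h. In the difference in response, arrays scaled gave 1 in place of 0 at 1.5 h. At 6 h, where 1 passed, 3 did without centring and 2 with each spot alone. At 24 h, where 4 passed, 37 did without centring, 27 with quantile normalization, 48 with arrays scaled, 1 with genes of an SD above the median, and 0 with each spot alone or with the letters as a replicate block.

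Leaving out 1 array at a time gave 0 to 1 genes in the genotype average, 0 to 3264 at 0 h, 0 to 4, 0 to 9 and 1 to 72 in the TNF responses at 1.5, 6 and 24 h, and 0 to 363, 0 to 2581 and 0 to 2004 in the differences in response. The high counts at 0 h and in the differences in response came without KO 0 h array a or without KO 0 h array b. Either way the WT 0 h pair alone was left to estimate the spread. Without a WT 0 h array the KO 0 h pair alone was left, and these counts did not rise. The WT 0 h arrays correlated at 0.857 and the KO 0 h arrays at 0.69, and the part of this in the counts was not tested. With KO 0 h array a or array b left out, genes of the epithelial lists and members were among those that passed. This held at 0 h and in the differences in response at 6 and 24 h. These fits leave 1 array in the KO 0 h group, and nothing is read from them. The 72 genes at 24 h came with the 24 h array labelled KO left out. The letters pair no samples by the labels, and the a minus b differences of KO and WT correlated at -0.01 over genes. Of 756 member values under the alternatives 58 had the other sign, 35 of 312 under another processing and 23 of 444 with an array left out. Part of these values could not change. The letters as a block left every member estimate as it was, and so did leaving out an array that a comparison does not use. The counts therefore do not measure how stable the signs are. In the genotype average, the values of Ocln, Krt7, Krt18 and Cdh1 kept their sign under all the alternatives. At 0 h those of Ocln, Krt7, Cdh1 and St14 did. Krt18 in the genotype average was as near to 0 as -0.05 and Cdh1 -0.01. The values of Krt8 and St14 in the genotype average, -0.10 and -0.19, were as high as 0.26 and 0.18. With 1 array per treated group, no value at a treated time has a replicate of its own.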
